A study of Mus musculus with 24 samples.

Results

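Cells of the mouse liver that had taken up curcumin-loaded liposomes were compared with cells of the same sort that had not. The comparison used all libraries labelled as curcumin liposome, 3 of DiI-positive and 3 of DiI-negative cells, out of 12 libraries in the series. Its members were all genes with a mean log2 value of 4 or more over the 12 libraries, which kept 14227 of the 24874 genes that were not at 0 throughout. The cells of both gates came from female C57BL/6 mice kept for 2 weeks on food deficient in methionine and choline, which is used to model steatohepatitis. The mice were injected intravenously with liposomes that carried curcumin and the membrane dye DiI. At 24 hours CD11c+ MHC class II+ hepatic cells were sorted by DiI. The other 6 libraries came from mice on the same diet that received DiI-labelled empty liposomes, sorted in the same way, and no group went without the diet or without liposomes. Each library column was shared by 2 sample records and was counted as 1 library. Whether each of the 3 libraries stands for a separate animal or a pool is not stated. The p-values cover only the spread among libraries of a group, pooled over all 12 libraries, and part of it may be technical.

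CD11c and MHC class II are the usual sorting markers of dendritic cells, but Kupffer cells, macrophages that reside in the liver sinusoids, can carry both, and B cells carry MHC class II. Kupffer cells and sinusoidal endothelial cells clear particles from the blood through scavenger, complement and lectin receptors, and phagocytosed lipid is broken down in lysosomes. Cholesterol released there is exported through genes switched on by the nuclear receptor LXR, while the SREBP-2 pathway of sterol synthesis is held back. Curcumin is a plant polyphenol studied for effects on NF-kB signalling and on the NRF2 antioxidant response.

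Values are the authors' log2 expression values on a shrunken scale, in which a difference of 1 stands for a factor of 2 and changes of low genes are understated. Genes that define the gate were high on both sides. Cd74, the class II invariant chain, ranged from 18.99 to 19.37 over the 6 libraries, and Itgax, which encodes CD11c, from 12.55 to 13.45. Neither differed past the threshold (Cd74 -0.05 ± 0.10, Itgax -0.36 ± 0.25, limma adjusted p = 0.82 and 0.48). The first principal component of the 6 libraries held 42.1% of the variance. On it the DiI-negative libraries lay between -24.6 and -15.0, DiI-positive libraries 1 and 2 at 34.2 and 26.2, and DiI-positive library 3 apart from them at 0.5. An index of relative depth ran from 0.821 to 0.973 in the DiI-positive and from 1.023 to 1.132 in the DiI-negative libraries, so depth and gate cannot be told apart in the 6 libraries alone.

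After curcumin liposomes 437 of the 14227 genes differed between the gates at a limma adjusted p under 0.05, which is 3.07% of the genes tested. DiI-positive cells had 200 genes higher (1.41%) and 237 lower (1.67%), and 95 of the rises and 59 of the falls exceeded 2-fold. Of the 50 gene lists, those of Kupffer cells and B cells held the most rises (13 each), and the list of NK and cytotoxic genes the most falls (12), followed by mitosis genes (6). The 3 libraries of one gate did not overlap those of the other in any of the 437 genes. The same held for 20.6% of all genes tested. The median difference over all genes was -0.003 on the log2 scale; the values were normalized before deposit, so a shift of the whole table could not be seen in them. In bulk RNA of sorted cells, more cells of a type and more RNA per cell cannot be told apart. The number of calls was 114 without DiI-negative library 1, 236 without DiI-negative library 3, 266 without DiI-positive library 1, 135 without DiI-positive library 2 and 1088 without DiI-positive library 3, and 706 without library 3 of both gates. It was 40 when only the 6 libraries compared entered the fit, and 73 with the depth index as a covariate. A core of 87 genes, 40 higher and 47 lower (0.612% of the genes tested), passed in each of the 6 fits that left out 1 of these libraries.

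**Figure D1:**
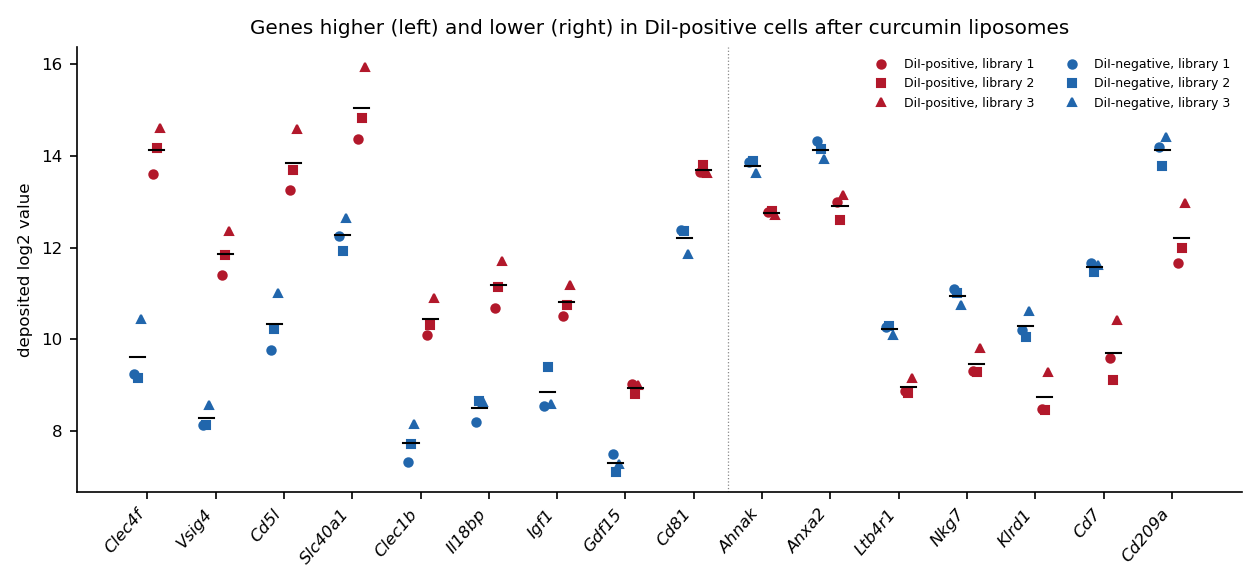
Deposited log2 values of 16 genes in the 3 DiI-positive (red) and 3 DiI-negative (blue) libraries after curcumin liposomes. Each marker is 1 library, with its shape giving the library number, and each black line is the mean of 3. The gates do not overlap in any of the 16 genes; the genes left of the dotted line were higher in DiI-positive cells and those right of it lower.

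Surface receptors of Kupffer cells were among the largest differences. Clec4f, a lectin receptor confined among liver cells to Kupffer cells (GRCm38 chr6:83644542-83656187, minus strand), was at 13.61, 14.18 and 14.61 in the DiI-positive libraries and at 9.24, 9.16 and 10.45 in the DiI-negative libraries. It was 22.9-fold higher on this scale (4.52 ± 0.57 log2, adjusted p = 0.0044), and every DiI-positive library lay more than 3 log2 units above every DiI-negative one. Vsig4, the complement receptor CRIg (chrX:96247203-96293438), was at 11.40, 11.84 and 12.36 against 8.13, 8.13 and 8.56 (3.59 ± 0.50, adjusted p = 0.0059). Clec1b, a C-type lectin, was at 10.10, 10.32 and 10.90 against 7.32, 7.71 and 8.14 (2.72 ± 0.29, adjusted p = 0.003). In all 3 receptors DiI-positive library 3 was the highest of the 6. Marco, a scavenger receptor for modified lipoproteins and bacteria, was at 10.66, 10.64 and 11.88 against 5.98, 6.61 and 7.87 (4.24 ± 0.76, adjusted p = 0.016), and Folr2, the folate receptor beta, at 8.65, 9.31 and 9.54 against 6.67, 6.11 and 6.29 (2.81 ± 0.45, adjusted p = 0.01). Timd4, a receptor for phosphatidylserine on resident Kupffer cells, was at 8.91, 9.80 and 10.24 against 5.59, 5.89 and 7.74. Its gates did not overlap, but its difference of 3.24 ± 0.90 missed the threshold (adjusted p = 0.078). Vcam1, an adhesion molecule of Kupffer cells and activated endothelium, rose by 2.40 ± 0.36 (adjusted p = 0.0077), from 9.69, 10.24 and 9.97 to 11.39, 12.64 and 13.06.

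Secreted products of macrophages rose with the receptors. Cd5l, a secreted scavenger protein, was at 13.25, 13.69 and 14.60 in DiI-positive against 9.76, 10.22 and 11.02 in DiI-negative libraries (3.51 ± 0.50, adjusted p = 0.006). Il18bp, which binds and neutralises interleukin-18 (chr7:102014885-102018690), was at 10.69, 11.15 and 11.71 against 8.20, 8.66 and 8.63 (2.68 ± 0.26, adjusted p = 0.0021). Igf1, a growth factor, was at 10.50, 10.74 and 11.19 against 8.54, 9.39 and 8.58 (1.98 ± 0.26, adjusted p = 0.0051). These genes did not overlap between gates, and all 3 passed in each of the fits that left out 1 library. Fcna, a ficolin that starts the lectin pathway of complement, rose by 3.30 ± 0.62 (adjusted p = 0.019). Fcnaos, annotated on the opposite strand of the same locus, rose by 2.35 ± 0.43 (adjusted p = 0.017); the strand used in counting is not given in the sources used here, so their reads may not be separate. Of the 20 Kupffer cell genes, all kept by the filter, 13 rose and none fell, with a median of 2.54 and positive differences in all 20. Of the 20, 17 did not overlap between gates, where 9.88% of all genes lay wholly higher. The mean of the list was 11.27, 11.80 and 12.25 in DiI-positive and 9.25, 9.49 and 9.54 in DiI-negative libraries. The rises were 8 without DiI-negative library 1, 8 in the fit of the 6 libraries alone and 6 with the depth index as a covariate.

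Complement genes rose in 6 of 19, with a median of 0.84. C6, a late component of the membrane attack pathway, was at 9.77, 9.54 and 10.07 against 5.69, 5.54 and 6.39 (3.92 ± 0.71, adjusted p = 0.017). The 3 chains of C1q, the starter of the classical pathway that liver macrophages make, rose together. C1qa rose by 1.80 ± 0.37, C1qb by 1.74 ± 0.34 and C1qc by 1.82 ± 0.36 (adjusted p = 0.025, 0.023 and 0.024). In each of them the DiI-positive libraries were close together and the DiI-negative ones spread: C1qb was at 14.91, 15.23 and 14.97 against 13.36, 14.05 and 12.48. Cd55, a brake on complement also carried by B cells, rose by 1.31 ± 0.25 (adjusted p = 0.02), and the last of the 6 was Vsig4. The count was 2 without DiI-negative library 1, 3 without DiI-negative library 3, 2 without DiI-positive library 1 and 1 without DiI-positive library 2, and each C1q gene passed in 2 or 3 of the leave-one-out fits.

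Receptors for cargo and dying cells rose in part. Mertk, a receptor for apoptotic cells, was at 10.81, 11.81 and 11.60 against 9.81, 10.31 and 9.17 (1.64 ± 0.32, adjusted p = 0.023), and Stab1, a scavenger receptor shared by macrophages and sinusoidal endothelium, rose by 1.08 ± 0.23 (adjusted p = 0.031). With Marco and Vsig4 these made 4 of 26 genes of the scavenger and phosphatidylserine receptor list, whose median was 0.55. That count was 1 without DiI-negative library 1, 2 without DiI-negative library 3 and 2 without DiI-positive library 2. Of 27 genes of endocytosis and the early endosome 1 passed, where 3.07% of all genes did, and the median was -0.03. It was Snx5, a sorting nexin (0.54 ± 0.12, limma adjusted p = 0.035). The call was lost without DiI-negative library 1, DiI-negative library 3, DiI-positive library 1 or DiI-positive library 2, in the fit of the 6 libraries alone and with the depth index. Of 30 myeloid lectin receptors 3 rose and 2 fell. The rises were Clec4f, Clec1b and Clec4n, the receptor dectin-2 (0.97 ± 0.20, adjusted p = 0.026), and the falls were Cd209a and Clec10a. The falls were 5 without DiI-positive library 3 and 1 without DiI-negative library 2, DiI-negative library 3, DiI-positive library 1 or DiI-positive library 2; Cd209a passed in each of the leave-one-out fits and Clec10a in 2.

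The degradative end of the pathway showed smaller differences. Tpp1, a lysosomal tripeptidyl peptidase, was at 12.55, 12.42 and 12.38 against 11.51, 11.71 and 11.54 (0.86 ± 0.10, adjusted p = 0.0037). Pld3, a lysosomal nuclease, was at 13.21, 13.38 and 13.33 against 12.03, 12.34 and 11.59 (1.32 ± 0.18, adjusted p = 0.0054). Both passed in each of the fits that left out 1 library, and in neither did the gates overlap. Acp5, an acid phosphatase (1.27 ± 0.22), Lgmn, the protease legumain (1.16 ± 0.22), the membrane protein gene Cd63 (1.11 ± 0.24) and Idua (0.60 ± 0.14) also rose, and Arsb, which like Idua degrades glycosaminoglycans, fell by 1.03 ± 0.23. These made 6 rises and 1 fall among 49 lysosomal genes, whose median was 0.18, and the rises were 2 without DiI-negative library 1, 3 without DiI-negative library 3 and 2 without DiI-positive library 2. Arsb did not pass without DiI-negative library 1, DiI-negative library 3, DiI-positive library 1 or DiI-positive library 2. Of 16 cathepsin family genes 4 rose, namely Ctsd (1.14 ± 0.22), Ctsb (0.92 ± 0.17), Ctso (0.74 ± 0.17) and Lgmn. The fall in that list was Ctsw (-1.23 ± 0.24), a cathepsin of NK and cytotoxic T cells. No cathepsin rise was left without DiI-negative library 1 or without DiI-positive library 2, and 1 was left without DiI-negative library 3. Ctsw did not pass without DiI-negative library 1, DiI-positive library 1 or DiI-positive library 2.

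Iron handling was represented by Slc40a1, the iron exporter ferroportin, at 14.37, 14.84 and 15.94 against 12.26, 11.92 and 12.64 (2.78 ± 0.35, adjusted p = 0.0044). Blvrb, a biliverdin reductase, was at 11.22, 11.06 and 11.21 against 10.01, 10.47 and 9.51 (1.17 ± 0.20, adjusted p = 0.014). These were the 2 rises among 22 genes of the list, with 1 without DiI-negative library 1, 4 without DiI-negative library 2 and 3 without DiI-positive library 1. Hmox1, which splits heme and is also a target of NRF2, was at 12.67, 12.67 and 13.59 against 11.84, 12.58 and 11.63. The gates did not overlap, and the difference of 0.96 ± 0.29 missed the threshold (adjusted p = 0.10). Of 26 transcription factors linked to liver macrophages and dendritic cells 1 passed, where 3.07% of all genes did. It was Spic, which is tied to heme and red pulp macrophages. Spic was at 10.49, 10.42 and 11.13 against 9.62, 9.86 and 9.44 (1.04 ± 0.21, limma adjusted p = 0.024). With a replicate block over 12 libraries this list had 0 rises and 1 fall. Spic did not pass without DiI-negative library 1 or DiI-negative library 3, and 2 genes of this list rose without DiI-negative library 2.

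Genes of lipid-associated macrophages rose in 7 of 19, with 1 fall and a median of 0.64. Mmp12, a macrophage elastase, was at 11.71, 11.77 and 12.50 against 9.73, 10.29 and 10.74 (1.74 ± 0.28, adjusted p = 0.01). The others were Apoe, Pld3, Lpl, Ctsd, Cd63 and Ctsb, and the fall was Anxa1. The rises were 2 without DiI-negative library 1, 3 without DiI-negative library 3 and 2 without DiI-positive library 2. Rises outside these lists included Gdf15, a stress-responsive cytokine of the TGF-beta family (chr8:70629393-70632456), at 9.02, 8.80 and 8.99 against 7.50, 7.11 and 7.27. Its difference of 1.65 ± 0.14 had the smallest adjusted p among the genes named here (0.0017). Cd81, a tetraspanin of B cells and macrophages, was at 13.65, 13.80 and 13.64 against 12.38, 12.37 and 11.86 (1.49 ± 0.18, adjusted p = 0.0037). Dmpk, a kinase gene, rose by 1.64 ± 0.20, Adamdec1, a metalloprotease of tissue macrophages, by 1.90 ± 0.31, and Adm, the vasodilator peptide adrenomedullin, by 1.33 ± 0.15. All 5 passed in each of the fits that left out 1 library. Tspan15, a tetraspanin, was at 9.26, 9.64 and 10.16 against 6.11, 7.17 and 7.37 (2.80 ± 0.51, adjusted p = 0.017), and Nid1, the basement membrane protein nidogen, rose by 2.05 ± 0.42. Both passed in 4 of the 6 leave-one-out fits.

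The list of LXR targets and lipid efflux and the list of sterol biosynthesis had medians of opposite sign. LXR targets and genes of lipid efflux rose in 7 of 16 and fell in none, with a median of 0.57. Apoc1, an apolipoprotein, was at 8.21, 8.34 and 9.10 against 6.64, 6.51 and 6.73 (1.93 ± 0.30, adjusted p = 0.0096). Scd1, a fatty acid desaturase, was at 12.58, 13.15 and 12.20 against 11.50, 11.51 and 11.09 (1.28 ± 0.21, adjusted p = 0.011). Abca1, the pump that loads cholesterol onto apolipoprotein A-I, was at 11.02, 11.70 and 11.34 against 10.77, 10.25 and 10.03 (1.01 ± 0.22, adjusted p = 0.033). The gates were apart in all 3, by least in Abca1. Apoe (1.46 ± 0.28), Lpl, a lipoprotein lipase (1.15 ± 0.23), Pltp, a phospholipid transfer protein (0.97 ± 0.17), and Mylip, an E3 ubiquitin ligase (0.61 ± 0.10), were the other rises. Nr1h3, which encodes LXR alpha itself, was at 12.19, 12.20 and 12.20 against 11.20, 11.97 and 10.48 and did not pass (0.98 ± 0.34, adjusted p = 0.14). The rises were 3 without DiI-negative library 1 and 3 without DiI-positive library 2. They were 1 in the fit of the 6 libraries alone and 0 with the depth index as a covariate. The median with the depth index was 0.63. The fit of the 6 libraries alone keeps the same group means, so its median of 0.57 could not differ.

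Sterol biosynthesis genes fell in 4 of 25 and rose in none, with a median of -0.28 and 20 negative differences. Hmgcs1, the cytosolic HMG-CoA synthase, was at 10.29, 10.45 and 10.62 in DiI-positive against 11.47, 11.46 and 11.38 in DiI-negative libraries (-0.98 ± 0.17, adjusted p = 0.013). Sqle, the squalene epoxidase, had values of 9.73, 9.99 and 10.22 against 10.77, 10.74 and 10.82 (-0.80 ± 0.13, adjusted p = 0.011). Cyp51, lanosterol demethylase, was at 10.10, 10.48 and 10.77 against 11.30, 11.35 and 11.27 (-0.86 ± 0.18, adjusted p = 0.027). In these 3 genes the DiI-negative libraries were close together and every DiI-positive library lay below them. Mvd, mevalonate decarboxylase, was at 9.98, 9.88 and 9.74 against 10.46, 10.71 and 10.39 (-0.66 ± 0.11, adjusted p = 0.013). Mvd and Sqle passed in each of the 6 leave-one-out fits, Hmgcs1 in 5 and Cyp51 in 1. The sterol list had 2 falls without DiI-negative library 1 and 2 with the depth index as a covariate. It had 1 in the fit of the 6 libraries alone. Fasn, the fatty acid synthase, is outside the sterol list. Fasn fell by 1.01 ± 0.19 (limma adjusted p = 0.019) and passed in 2 of the 6 leave-one-out fits. Of 19 genes of fatty acid synthesis and uptake Fasn was the 1 fall and Scd1 the 1 rise, with a median of -0.06. Over the fits that left out 1 library the rises in that list were 1 to 2 and the falls 0 to 2.

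**Figure D2:**
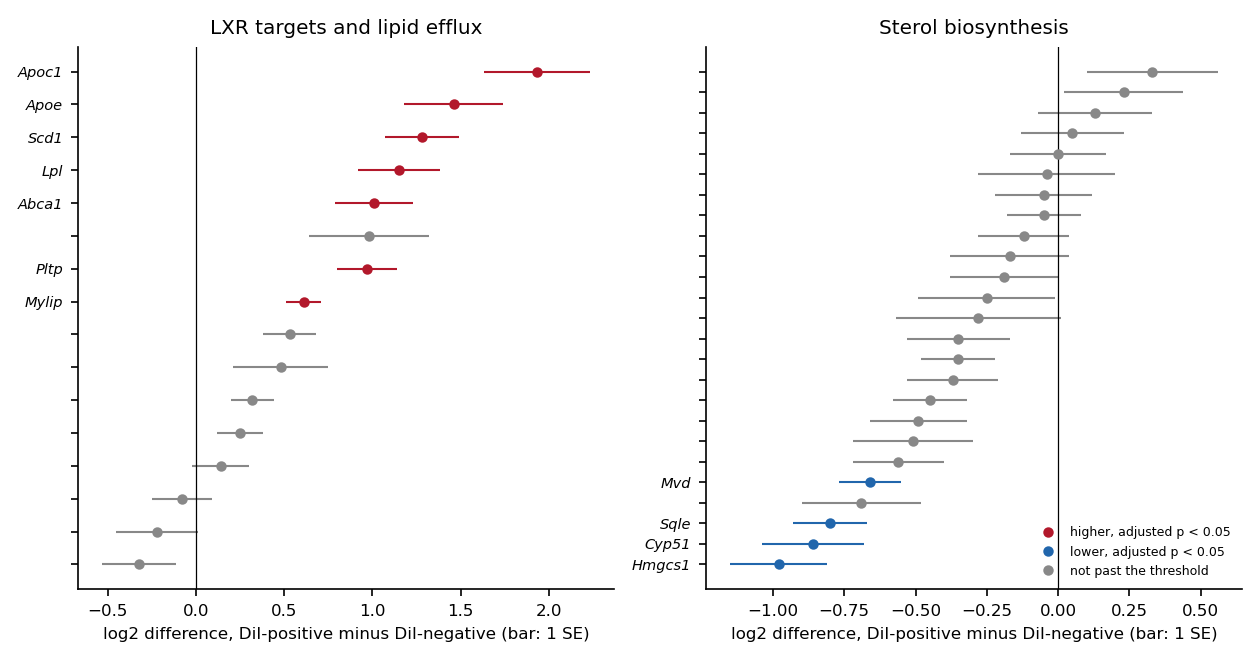
Gate difference (log2, DiI-positive minus DiI-negative) after curcumin liposomes for each gene of the LXR and lipid efflux list (left, 16 genes) and the sterol biosynthesis list (right, 25 genes), with bars of 1 standard error. Red marks the 7 genes past the threshold and higher, blue the 4 past it and lower, and grey the rest; genes past the threshold are named.

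Promoter windows of 3 of the 4 sterol genes that fell are printed to show where short elements known from sterol promoters lie in them. Windows of 300 bases, from 250 before to 50 after a RefSeq start on GRCm38.p6, were searched on both strands for the sterol response element TCACNCCAC, where SREBP binds, and for the CCAAT box, where NF-Y binds. Capitals mark the matches, a CCAAT box on the opposite strand reading ATTGG. Hmgcs1 lies at chr13:119690101-119690400 (plus strand), Cyp51 at chr5:4104648-4104947 (minus strand) and Mvd at chr8:122443373-122443672 (minus strand); Sqle had no window in the table.
Hmgcs1: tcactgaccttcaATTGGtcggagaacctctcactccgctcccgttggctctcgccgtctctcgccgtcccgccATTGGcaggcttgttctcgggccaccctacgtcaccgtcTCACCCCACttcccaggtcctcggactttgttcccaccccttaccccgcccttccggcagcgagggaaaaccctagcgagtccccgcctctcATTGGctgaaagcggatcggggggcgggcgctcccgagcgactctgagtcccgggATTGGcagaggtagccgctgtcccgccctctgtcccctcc
Cyp51: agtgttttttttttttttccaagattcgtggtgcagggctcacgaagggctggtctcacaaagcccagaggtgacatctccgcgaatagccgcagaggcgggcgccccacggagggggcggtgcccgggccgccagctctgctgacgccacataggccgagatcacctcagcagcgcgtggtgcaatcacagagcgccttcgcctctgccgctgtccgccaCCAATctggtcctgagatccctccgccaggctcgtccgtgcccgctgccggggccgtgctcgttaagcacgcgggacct
Mvd: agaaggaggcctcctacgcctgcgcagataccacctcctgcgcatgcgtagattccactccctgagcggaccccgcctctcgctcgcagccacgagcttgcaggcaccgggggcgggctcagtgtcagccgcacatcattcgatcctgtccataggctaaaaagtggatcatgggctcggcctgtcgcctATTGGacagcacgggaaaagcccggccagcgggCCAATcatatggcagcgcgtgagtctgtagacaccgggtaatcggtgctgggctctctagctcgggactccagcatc
The sterol response element matched 1 of the 18 sterol genes with a window, Hmgcs1, where it began 137 bases before the start, against 1.44% of the 27025 genes in the table. The CCAAT box matched 17 of the 18, all 3 printed genes among them, against 41.1% of all genes. For comparison, the LXR element, a direct repeat of AGGTCA spaced by 4 bases, matched none of 10 LXR list genes and 0.0148% of all genes. The lysosomal core CACGTG, which the longer CLEAR element contains, matched 12 of 40 lysosomal genes and 8.09% of all genes. These are matches of letters in 1 window per start and not binding data.

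B cell genes formed the second group of rises. Of 25 B cell genes 13 rose and none fell, all 25 had positive differences, and the median was 1.09. Cxcr5, the receptor that leads B cells into follicles, was at 12.35, 12.43 and 11.35 in DiI-positive against 10.80, 10.70 and 10.22 in DiI-negative libraries (1.47 ± 0.26, adjusted p = 0.015). Ighm, the constant region of IgM, was at 16.21, 16.31 and 15.34 against 14.96, 14.88 and 14.90 (1.04 ± 0.20, adjusted p = 0.02). Ebf1, a transcription factor of the B lineage, was at 11.84, 12 and 11.22 against 10.92, 10.63 and 10.42 (1.03 ± 0.19, adjusted p = 0.017). In all 3 genes DiI-positive library 3 was the lowest of its gate, while it was the highest in the Kupffer cell receptors Clec4f, Vsig4 and Clec1b. Further rises were those of Ms4a1, Blk, Bank1, Blnk, Ralgps2, Fcmr, Fcer2a, Fcrl1 and Fcrla, by 0.78 to 1.38. Cd79a and Cd79b, the signalling chains of the B cell receptor, lay wholly higher in DiI-positive libraries and missed the threshold (1.21 ± 0.32 and 1.24 ± 0.31, adjusted p = 0.066 and 0.053). The count of 13 was 2 without DiI-negative library 1, 6 without DiI-negative library 2, 2 without DiI-negative library 3, 2 without DiI-positive library 1 and 0 without DiI-positive library 2, and 25 of 25 without DiI-positive library 3. In the fit of the 6 libraries alone, and with the depth index as a covariate, no B cell gene passed. The median with the depth index was 0.95. The fit of the 6 libraries alone keeps the same group means, so its median of 1.09 could not differ. Genes of follicular and marginal zone B cells rose in 7 of 17, among them S1pr1, which guides exit from tissue (1.25 ± 0.22), Ccr7 (1.10 ± 0.20), Mzb1 (1.14 ± 0.21) and Cd1d1 (0.72 ± 0.13). That count was 4 without DiI-negative library 1, 3 without DiI-negative library 3, 4 without DiI-positive library 1 and 0 without DiI-positive library 2. Fc receptors rose in 6 of 16. Of these, 5 were the B cell genes Fcmr, Fcer2a, Fcrl1, Fcrl5 and Fcrla, and 1 was Fcgr4, a macrophage receptor for IgG (0.98 ± 0.22, adjusted p = 0.035). No Fc receptor rise was left without DiI-negative library 1, DiI-negative library 3, DiI-positive library 1 or DiI-positive library 2, and 2 were left without DiI-negative library 2.

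Immunoglobulin variable segments, which carry the antigen-binding part of antibodies, were tested for 121 heavy and light chain genes. Of these, 6 rose and none fell, 118 had positive differences, and the median was 0.27. Ighv11-2, a heavy chain segment used by B-1 cells that bind phosphatidylcholine, was at 8.63, 8.33 and 7.85 against 5.69, 5.62 and 5.65 (2.62 ± 0.26, adjusted p = 0.0021). A light chain segment of the Igkv14 family, which pairs with it in such cells, was at 7.96, 7.70 and 7.25 against 5.88, 6.26 and 6.06 (1.56 ± 0.23, adjusted p = 0.0069). Both segments passed in each of the leave-one-out fits, and Ighv11-2 also in the fit of the 6 libraries alone. Iglv2 (1.19 ± 0.21), Igkv12-89 (1.03 ± 0.24), Igkv8-21 (0.93 ± 0.22) and Ighv10-1 (0.49 ± 0.09) were the other rises, of which Iglv2 and Ighv10-1 passed in 5 of the leave-one-out fits, Igkv12-89 in 2 and Igkv8-21 in 1. Of 19 other genes of B-1 cells 2 rose (Apoe and Fcrl5) and 2 fell (Anxa2 and S100a6), with a median of -0.16. The rises were 0 without DiI-negative library 1, DiI-positive library 1 or DiI-positive library 2 and 1 without DiI-negative library 3, and the falls were 4 without DiI-positive library 3. Some V segments are near-identical copies of one another, so reads may have been shared among those.

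**Figure D3:**
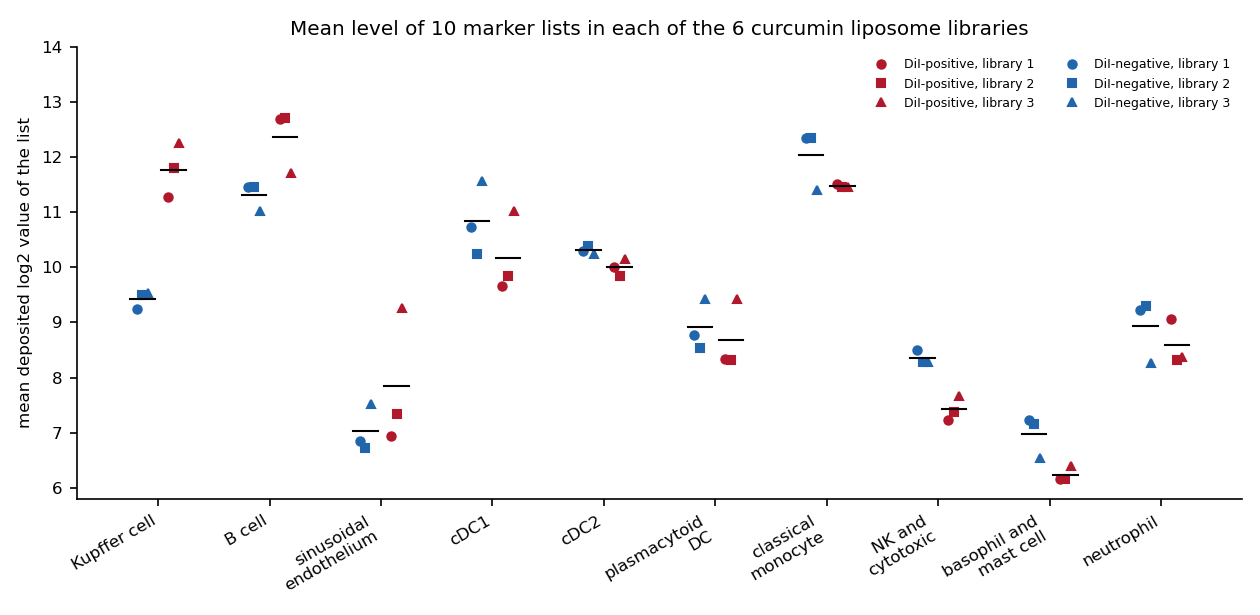
Mean deposited log2 value of 10 marker lists in each curcumin liposome library (red, DiI-positive; blue, DiI-negative; marker shape, library number; black line, mean of 3). The gates are apart for the Kupffer cell, B cell, NK, cDC2 and basophil lists and overlap for the sinusoidal endothelial, cDC1, plasmacytoid, monocyte and neutrophil lists, and library 3 differs from libraries 1 and 2 in several lists.

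NK and cytotoxic genes had the most falls of any list. All 30 had negative differences, 12 passed, and the median was -0.90. Klrd1, the CD94 chain of NK receptors, was at 8.48, 8.46 and 9.29 in DiI-positive against 10.21, 10.04 and 10.61 in DiI-negative libraries (-1.54 ± 0.24, adjusted p = 0.0083). Nkg7, a protein of cytotoxic granules, was at 9.30, 9.28 and 9.81 against 11.09, 11 and 10.75 (-1.48 ± 0.21, adjusted p = 0.0057). Ccl5, a chemokine of NK and T cells, was at 10.27, 10.27 and 10.66 against 11.86, 11.61 and 11.47 (-1.25 ± 0.19, adjusted p = 0.0083). In each of them DiI-positive library 3 was nearest to the DiI-negative libraries without reaching them. Cd7 (-1.87 ± 0.28), Klrk1, the receptor NKG2D (-1.85 ± 0.37), Ncr1, the receptor NKp46 (-1.63 ± 0.33), Il2rb, a receptor chain for interleukins 2 and 15 (-1.37 ± 0.30), Ctsw, and Tbx21, the transcription factor T-bet (-1.22 ± 0.22), also fell. So did Klrc1, Klre1 and Klra4, lectin-like receptors with near-identical relatives. The count was 4 without DiI-negative library 1, 7 without DiI-positive library 1, 4 without DiI-positive library 2, 3 in the fit of the 6 libraries alone and 1 with the depth index as a covariate. T cell genes fell in 2 of 28, Trbc2, a constant region of the T cell receptor (-0.77 ± 0.14), and Bcl11b, a T lineage factor (-0.58 ± 0.13). Neither passed without DiI-negative library 1 or DiI-positive library 2, and 1 of them without DiI-negative library 2, DiI-negative library 3 or DiI-positive library 3.

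Falls among dendritic cell genes included lectins of cDC2, the type 2 conventional dendritic cells that prime helper T cells. Cd209a, a DC-SIGN lectin of monocyte-related cells and cDC2 (chr8:3743397-3748984), was at 11.67, 12 and 12.97 against 14.20, 13.78 and 14.42 (-1.92 ± 0.29, adjusted p = 0.0077). Clec10a, a galactose-type lectin, was at 9.17, 9.18 and 10.01 against 10.47, 10.82 and 10.93 (-1.29 ± 0.24, adjusted p = 0.019). With Cd7 these were the 3 falls among 19 cDC2 genes, whose median was -0.32. Sirpa, also used to define cDC2 and carried by macrophages, was not past the threshold (0.27 ± 0.16, adjusted p = 0.41). Of 18 genes of cDC1, the type 1 cells that cross-present antigen, 1 fell, where 1.67% of all genes did. It was Ifi205 (-1.10 ± 0.26), and the median of the list was -0.61. Xcr1 and Clec9a, which define cDC1, were at 7.92, 7.49 and 10.09 against 9.78, 8.35 and 10.72 and at 7.95, 7.36 and 9.47 against 9.01, 8.42 and 9.99. In both, library 3 of each gate was the highest of its gate, and the gates overlapped. The mean of the cDC1 list was 9.67, 9.84 and 11.02 in DiI-positive against 10.74, 10.25 and 11.56 in DiI-negative libraries. Taken by number, each DiI-positive library lay below the DiI-negative one in this mean, in Xcr1 and in Clec9a. The main fit did not pair libraries by number. With a replicate block over 12 libraries the list had 5 falls and 1 rise. In the unpaired fits the falls in this list were 5 without DiI-positive library 3 and 0 without any one of the other 5 libraries. The plasmacytoid marker Siglech had the same pattern of library 3, at 11.28 and 11.48 against 7.40 to 9.08 in the other 4 libraries. Of 19 genes of mature migratory dendritic cells 2 rose and 1 fell, with a median of 0.03. Ccr7, named above with the B cell genes, was 1 of these rises. Over the fits that left out 1 library the rises were 0 to 2 and the falls 0 to 1.

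Classical monocyte genes fell in 4 of 17, with a median of -0.48. Ccr2, the receptor that brings monocytes out of the marrow, was at 13.86, 13.67 and 13.86 against 14.62, 14.54 and 14.48 (-0.75 ± 0.11, adjusted p = 0.0077), and it passed in each of the leave-one-out fits. F13a1, a transglutaminase of monocytes, was at 11.88, 12.13 and 11.58 against 14.23, 13.68 and 12.51 (-1.61 ± 0.33, adjusted p = 0.026). Ly6c2, the monocyte surface antigen, was at 10.53, 10.01 and 10.88 against 12.14, 12.10 and 11.26 (-1.36 ± 0.27, adjusted p = 0.024). In the last 2 genes DiI-negative library 3 lay nearest to the DiI-positive libraries. Plac8 (-0.82 ± 0.20) was the remaining fall. Without DiI-negative library 3 there were 8 falls, and 1 was left without any one of the other DiI-negative libraries or of DiI-positive libraries 1 and 2. Of 16 genes of nonclassical monocytes 2 rose (Fcgr4 and Ear2) and none fell, and the rises were 0 without DiI-negative library 1, DiI-negative library 3 or DiI-positive library 2, and 1 without DiI-positive library 1 or DiI-positive library 3.

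A set of genes of the cell membrane skeleton and calcium-dependent membrane binding also fell. The group was put together after its values were seen, and is given as a description. Ahnak, a giant scaffold under the plasma membrane (chr19:8989284-9076914), was at 12.78, 12.79 and 12.71 against 13.86, 13.89 and 13.62 (-1.03 ± 0.10, adjusted p = 0.0021). Anxa2, an annexin that binds membranes in the presence of calcium, was at 13, 12.60 and 13.16 against 14.33, 14.16 and 13.93 (-1.22 ± 0.15, adjusted p = 0.0038). Lsp1, an actin-binding protein of leukocytes, was at 14.64, 14.37 and 14.71 against 15.34, 15.40 and 15.45 (-0.82 ± 0.09, adjusted p = 0.0031). Each had DiI-positive libraries well below all DiI-negative ones, and each passed in every leave-one-out fit. Anxa1 (-1.05 ± 0.14), S100a6 (-0.98 ± 0.14), Crip1 (-0.97 ± 0.13), the focal adhesion gene Zyx (-0.87 ± 0.13), Tagln2 (-0.76 ± 0.13) and the intermediate filament gene Vim (-0.75 ± 0.12) fell as well. Of all annexin genes tested, 2 of 9 fell and the median was -0.11, and of S100 genes 2 of 8 (S100a6 and S100a11) with a median of -0.30, so the falls were of single members.

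Part of the cell division genes fell. Of 30 mitosis genes 6 fell, 28 had negative differences, and the median was -0.69. Top2a, a topoisomerase of dividing cells, was at 7.95, 8.12 and 8.13 against 10, 9.52 and 9.13 (-1.48 ± 0.31, adjusted p = 0.029). Mki67, the proliferation antigen Ki-67, was at 9.41, 9.62 and 9.87 against 10.76, 10.75 and 10.26 (-0.96 ± 0.23, adjusted p = 0.045). Ccnb2, a mitotic cyclin, was at 7.70, 8.09 and 7.76 against 8.65, 8.92 and 8.60 (-0.87 ± 0.21, adjusted p = 0.047). The gates were apart in all 3, with DiI-negative library 3 the lowest of its gate. Ccnf, a cyclin outside the list, was at 6.43, 7.03 and 6.89 against 8.75, 7.91 and 7.94 (-1.42 ± 0.34, adjusted p = 0.049). Kif2c, Hmgb2 and Stmn1 were the other falls (-0.93 ± 0.16, -0.73 ± 0.16 and -0.86 ± 0.14). The count was 0 without DiI-negative library 1, 3 without DiI-positive library 1, 2 without DiI-positive library 2 and 0 in the fit of the 6 libraries alone, and Ccnb2 passed in none of the leave-one-out fits. DNA replication genes fell in 2 of 35, with a median of -0.19: Uhrf1, which maintains DNA methylation, was at 7.18, 6.95 and 8.44 against 9.02, 9.15 and 8.90 (-1.50 ± 0.32, adjusted p = 0.028), and Rrm2, a subunit of ribonucleotide reductase, fell by 1.11 ± 0.23. Neither was left without any one of the 6 libraries other than DiI-positive library 3.

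Promoters of mitotic genes are known for the CHR element TTTGAA and for repeated CCAAT boxes, and 3 windows are printed to show both, in capitals on either strand (TTCAAA and ATTGG on the opposite strand). Top2a lies at chr11:99024140-99024439, Mki67 at chr7:135716330-135716629 and Ccnb2 at chr9:70421505-70421804 of GRCm38.p6, all on the minus strand.
Top2a: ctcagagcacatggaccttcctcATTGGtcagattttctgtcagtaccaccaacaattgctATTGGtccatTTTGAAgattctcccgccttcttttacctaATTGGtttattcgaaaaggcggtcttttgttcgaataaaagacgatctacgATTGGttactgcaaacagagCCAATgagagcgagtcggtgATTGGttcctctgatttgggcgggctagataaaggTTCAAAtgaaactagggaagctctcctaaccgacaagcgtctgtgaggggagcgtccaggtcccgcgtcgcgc
Mki67: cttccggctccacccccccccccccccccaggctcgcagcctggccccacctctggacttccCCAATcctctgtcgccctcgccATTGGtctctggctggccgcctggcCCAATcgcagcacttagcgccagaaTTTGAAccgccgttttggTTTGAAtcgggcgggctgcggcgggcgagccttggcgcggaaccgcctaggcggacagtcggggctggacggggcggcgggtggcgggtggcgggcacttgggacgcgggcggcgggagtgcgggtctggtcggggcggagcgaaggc
Ccnb2: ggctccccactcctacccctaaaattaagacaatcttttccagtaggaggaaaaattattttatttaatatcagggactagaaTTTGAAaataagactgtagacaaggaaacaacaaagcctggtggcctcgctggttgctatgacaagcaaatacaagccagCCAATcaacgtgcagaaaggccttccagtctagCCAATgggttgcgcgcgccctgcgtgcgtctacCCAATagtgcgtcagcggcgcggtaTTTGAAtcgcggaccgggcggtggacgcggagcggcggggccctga
The CHR element matched 17 of the 25 mitosis genes with a window and all 5 that fell and had one, against 20.2% of all genes in the table. The CCAAT box matched 18 of the 25, and 4 of these 5, against 41.1%. The E2F sites TTTCCCGC, TTTGGCGC and TTTCGCGC matched 13 of 29 DNA replication genes, Uhrf1 among them and Rrm2 not, against 2.12% of all genes.

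Genes encoded in mitochondrial DNA rose in part. The group was chosen after its values were seen. Of 13 protein and ribosomal RNA genes encoded in mitochondrial DNA that the filter kept, 8 rose and none fell, with a median of 0.69. mt-Co1, a subunit of cytochrome oxidase, was at 16.84, 16.81 and 17.28 in DiI-positive against 16.19, 16.40 and 16.33 in DiI-negative libraries (0.67 ± 0.13, adjusted p = 0.02). mt-Nd2 rose by 0.77 ± 0.16, mt-Nd6 by 0.74 ± 0.15 and mt-Cytb by 0.77 ± 0.18 (adjusted p = 0.025, 0.023 and 0.047), and mt-Nd1, mt-Nd4, mt-Nd5 and mt-Rnr2 by 0.62 to 0.75. mt-Co2, mt-Atp6 and mt-Co3 were listed near the filter minimum of 4, between 4.39 and 5.03, and differed by 0.03 or less. Of 32 respiratory chain genes encoded in the nucleus none rose and 1 fell, where 1.67% of all genes fell. The median was -0.14, and the fall was Atp5c1 of the ATP synthase (-0.38 ± 0.08, limma adjusted p = 0.034). The falls were 2 without DiI-positive library 3 and 0 without any one of the other 5 libraries. The mitochondrial rises were 0 without DiI-negative library 1, 2 without DiI-negative library 3 and 2 without DiI-positive library 1, and 0 in the fit of the 6 libraries alone and with the depth index as a covariate. Mitochondrial genes have close copies in nuclear DNA, so their reads may have been split, and the part of RNA quality or of cell mixture in these differences was not tested.

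**Figure D4:**
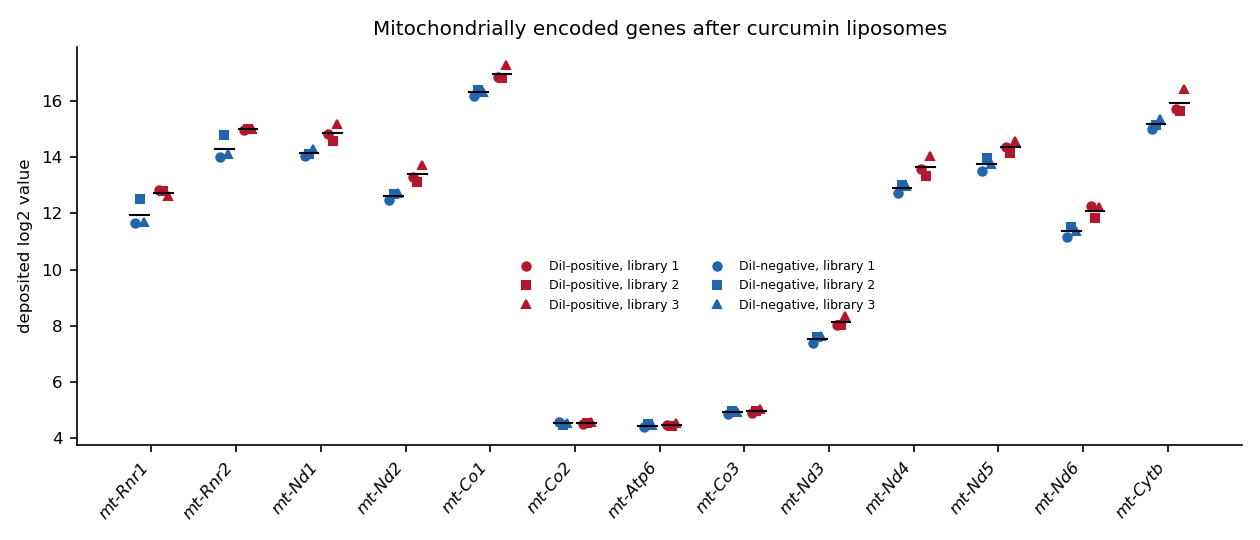
Deposited log2 values of the 13 mitochondrially encoded protein and ribosomal RNA genes in the 6 curcumin liposome libraries (red, DiI-positive; blue, DiI-negative; marker shape, library number; black line, mean of 3). mt-Co2, mt-Atp6 and mt-Co3 lie between 4.39 and 5.03 in all 6 libraries, and the gates do not overlap in the other 10 genes.

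Some inflammatory and stress genes passed the threshold. Of 29 genes of NF-kB subunits, inhibitors and inflammatory cytokines 3 fell and 1 rose. Over all genes tested 1.67% fell and 1.41% rose. By limma 13 of the 29 were at an unadjusted p under 0.05. The share of all genes at that level is not given here, so this count cannot be read as an excess. Bcl3, a nuclear co-factor of NF-kB, was at 10.22, 9.82 and 10.25 against 11, 11.14 and 11.03 (-0.96 ± 0.16, adjusted p = 0.011), and Nfkb1, which encodes p50, was at 12.42, 12.27 and 12.60 against 12.93, 12.92 and 13.21 (-0.59 ± 0.11, adjusted p = 0.019). Il6 fell by 0.46 ± 0.09 at the low end of the genes kept, from 5.17, 5.14 and 4.94 to 4.63, 4.62 and 4.63. Il1a rose by 1.08 ± 0.25. Of these 4, Bcl3 alone passed in each of the leave-one-out fits; the falls were 1 without DiI-negative library 1, 1 without DiI-positive library 2 and 6 without DiI-positive library 3, and Il1a passed only without DiI-negative library 2. Besides Il6, the preset cytokine genes did not pass. Tnf differed by -0.17 ± 0.21, Il1b by -0.15 ± 0.25, Il12b by 0.01 ± 0.17 and Il10 by 0.29 ± 0.11 (limma adjusted p = 0.73, 0.80, 0.98 and 0.16). Nfkbia, the inhibitor that NF-kB switches on, lay wholly lower in DiI-positive cells without passing (-0.37 ± 0.10, adjusted p = 0.066).

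None of 25 NRF2 target genes passed by limma, where 3.07% of all genes did. Their median was 0.08, and 11 were at an unadjusted p under 0.05. None of 26 Toll-like receptor and adaptor genes passed by limma, with 4 at an unadjusted p under 0.05 and a median of -0.02. The share of all genes at an unadjusted p under 0.05 is not given here, so such counts have no background beside them. Without DiI-positive library 3, 2 NRF2 targets rose and 3 fell and 1 Toll-like receptor gene rose and 2 fell, and without DiI-negative library 2, 2 NRF2 targets rose. Of 36 immediate early and stress genes 1 fell, Jund, a subunit of AP-1 (-1 ± 0.18, adjusted p = 0.017), against 5 without DiI-positive library 3 and 0 without DiI-negative library 3 or DiI-positive library 2. Of 30 interferon-stimulated genes 3 fell, where 1.67% of all genes did. They were Usp18 (-0.62 ± 0.13), Mx1 (-0.70 ± 0.16) and Ifi205, and the median of the list was -0.10. None of the 3 was left without DiI-negative library 1, DiI-negative library 2, DiI-positive library 1 or DiI-positive library 2. Of 15 MHC class II presentation genes 1 fell, H2-DMb1, a chain of the peptide exchange factor (-0.38 ± 0.08, adjusted p = 0.023), which passed in 2 of the 6 leave-one-out fits. Without DiI-positive library 3, 3 genes of this list rose and 1 fell, and likewise without both libraries numbered 3. H2-Ab1, a class II chain, was at 18.03, 17.95 and 17.73 against 18.04, 18.14 and 18.25 and did not pass (-0.24 ± 0.09, adjusted p = 0.16). Of 19 ligands that stimulate or inhibit T cells 2 rose, Vsig4 and Cd274, which encodes PD-L1 and was at 11.25, 11.21 and 11.87 against 10.67, 10.58 and 10.65 (0.81 ± 0.18, adjusted p = 0.035). Cd274 passed in 2 of the 6 leave-one-out fits. A p above the threshold does not show that these genes were equal, as the standard error of a difference had a median of 0.16.

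Signals between cells changed in single members. Of 19 chemokine ligand genes 2 fell, Ccl5 and Ccl22, which attracts regulatory T cells (-1.34 ± 0.28, adjusted p = 0.027). The falls were 1 without DiI-negative library 2, DiI-positive library 1 or DiI-positive library 2; Ccl5 passed in each of the leave-one-out fits and Ccl22 in 2. Ltb4r1, the leukotriene B4 receptor of granulocytes and monocytes, was at 8.87, 8.82 and 9.16 against 10.26, 10.29 and 10.09 (-1.26 ± 0.14, adjusted p = 0.0031). Alox5ap, which presents arachidonic acid for leukotriene synthesis, was at 12.62, 12.22 and 12.79 against 13.44, 13.39 and 13.31 (-0.84 ± 0.13, adjusted p = 0.0083). In Ltb4r1 and Alox5ap the gates were apart and the call held in each of the leave-one-out fits. Alox5ap was the 1 fall among 26 genes of eicosanoid and retinoid metabolism, whose median was -0.17, and 3 rose. Of these, Ptgs1, cyclooxygenase-1, rose by 1.70 ± 0.35 and Hpgds, a prostaglandin D synthase, by 1.16 ± 0.27 (limma adjusted p = 0.027 and 0.041). The third was Aldh1a1, which makes retinoic acid and lay near the filter minimum of 4 in all 6 libraries. Ptgs1 passed in 3 and Hpgds in 2 of the leave-one-out fits, and neither in the fit of the 6 libraries alone or with the depth index. The rises were 1 without DiI-negative library 1, DiI-negative library 3 or DiI-positive library 2, and the falls 2 without DiI-negative library 3 and 4 without DiI-positive library 3. Of 17 genes of semaphorins, plexins and guidance 1 rose and 2 fell, with a median of -0.04. Sema6d, a semaphorin, was at 9.69, 9.43 and 9.57 against 6.73, 7.19 and 7.93 (2.28 ± 0.30, limma adjusted p = 0.0051). Sema4a, another semaphorin, fell by 0.84 ± 0.11 and Ddr1, a collagen receptor, by 1.74 ± 0.34, the last passing in 2 of the leave-one-out fits. Of 26 integrin and adhesion genes Vcam1 and Pecam1 (1.09 ± 0.13) rose, and Itgb7, a chain of the gut-homing integrin (-0.74 ± 0.11), Selplg, the ligand of P-selectin (-0.70 ± 0.12), and Itga5 (-0.59 ± 0.14) fell. The falls in that list were 1 without DiI-negative library 1, and without DiI-positive library 3 there were 4 rises and 6 falls.

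Markers of cells outside the gate were read beside these groups. Of 20 sinusoidal endothelial genes 2 passed, Stab1 and Pecam1, both also made by macrophages, and the median was 0.74. The mean of that list was 6.94, 7.34 and 9.26 in DiI-positive and 6.85, 6.73 and 7.52 in DiI-negative libraries, so library 3 was the highest of each gate. Stab2, which defines these cells, was at 6.24, 9.87 and 12.02 against 5.66, 5.51 and 8.58, and Lyve1 lay between 4.41 and 6.09 in all 6. Without DiI-positive library 3 the median of the endothelial list was 0.03, while that of the Kupffer cell list was 2.19. The endothelial rises were 1 without DiI-negative library 1, DiI-negative library 3 or DiI-positive library 2, and 4 without DiI-positive library 1. Of 24 hepatocyte genes 1 passed, where 3.07% of all genes did. It was Serpina1b (0.93 ± 0.22, limma adjusted p = 0.043), one of several near-identical copies. Alb, serum albumin, lay wholly higher in DiI-positive cells at 9.73, 9.70 and 8.82 against 8.11, 8.53 and 8.17 without passing. Serpina1b passed in 1 of the leave-one-out fits, that without DiI-positive library 3, where 8 hepatocyte genes rose; none rose without any one of the DiI-negative libraries or DiI-positive library 2. The part of endothelial or hepatocyte RNA in the rises was not tested. None of 13 neutrophil genes passed by limma, where 3.07% of all genes did. At an unadjusted p under 0.05 there were 0, with no share of all genes to set beside it. Basophil and mast cell genes fell in 2 of 11 (Gata2, -1.23 ± 0.27, and Il6), in 6 without DiI-negative library 3, in 3 without DiI-positive library 3 and in 0 without any one of the other 4 libraries.

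The same gates after empty liposomes, measured in 6 other libraries, were set beside these values to see where curcumin-loaded liposomes differed. There 419 genes passed (2.95%), 188 of them higher (1.32%) and 231 lower (1.62%), and 222 passed in both comparisons, which is 50.8% of the 437 and 53.0% of the 419. Of the 437 genes, which were selected on the curcumin comparison, 430 had the same sign after empty liposomes. The test of the difference between the 2 gate effects passed for no gene (limma, smallest adjusted p = 0.999, with 527 genes below 0.05 before adjustment). It passed for Tcaf1 without DiI-positive library 1, for Galnt18 without DiI-positive library 2, for Cps1 and Aldh1a1 without DiI-positive library 3, and for Cps1 without both libraries numbered 3; these genes are named because they passed there. Without DiI-positive library 3, 8 hepatocyte genes rose in the gate comparison after curcumin liposomes. Over all 12 libraries the hepatocyte list had a median of 0.51 after curcumin and 0.14 after empty liposomes. The part of hepatocyte RNA in the calls of Cps1 and Aldh1a1 was not tested. Clec4f differed by 4.52 under both liposomes. Ighv11-2 differed by 3.76 after empty and 2.62 after curcumin liposomes, Sema6d by 0.86 and 2.28, C6 by 2.41 and 3.92, and Fasn by -0.24 and -1.01. The 7 genes of opposite sign were Dph7, Fmnl3, Tmco6 and Pbld2, which were higher after curcumin, and Hras, Pcyt2 and Scel, which were lower. After empty liposomes these 7 differed by -0.11 to 0.09. Hras, a small GTPase, was at 6.87, 6.96 and 7.13 against 7.64, 7.72 and 7.61 after curcumin liposomes (-0.66 ± 0.12, adjusted p = 0.019), and Pcyt2, an enzyme of phosphatidylethanolamine synthesis, at 11.52, 11.38 and 11.62 against 11.93, 12.14 and 11.94 (-0.50 ± 0.11, adjusted p = 0.033). The unadjusted p of the difference between liposomes was 0.0012 for Hras and 0.0065 for Pcyt2, and both were 0.999 after adjustment; the gate difference of Hras passed in 2 and that of Pcyt2 in 1 of the leave-one-out fits. Aldh1a1 had the smallest such p (0.00031). Aldh1a1 lay near the filter minimum of 4. After curcumin liposomes it was at 4.87, 4.81 and 4.53 against 4.15 in each DiI-negative library (0.59 ± 0.08, limma adjusted p = 0.0051). It differed by 0.02 after empty liposomes.

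**Figure D5:**
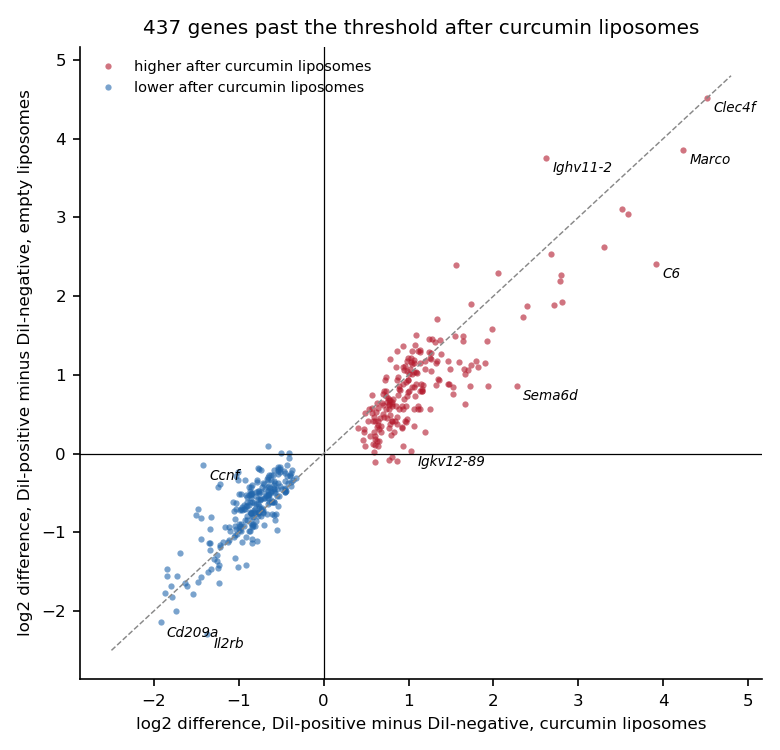
Gate difference (log2, DiI-positive minus DiI-negative) after curcumin liposomes (horizontal) and after empty liposomes (vertical) for the 437 genes past the threshold after curcumin liposomes, red if higher and blue if lower there. The dashed line marks equal differences; 430 points lie in the quadrants of equal sign, and Clec4f lies on the line at 4.52.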

How the data were processed

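RNA of sorted liver cells was made into libraries with a low-input SMARTer kit and Nextera XT, per the labels' protocols. The values deposited by the authors are normalized log2 values per gene in 12 library columns. Their form is that of a shrunken log2 of normalized counts, but no source used here states the transform, the read counter or the annotation. STAR 2.4.0d, DESeq2 1.8.1 and GRCm38 are named, per the submitters' processing notes. Read depth is unknown; only a relative index, from the steps between low values, could be had (deepest to shallowest 1.61 over 12 libraries), and precision is given as standard errors.

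The 24 sample records were joined to the 12 columns by library code, and groups were taken from the labels. Codes for liposome and DiI sort were read against the series' design text. Genes with a mean log2 value of 4 or more were kept. A group means model of all 12 libraries was fitted with limma 3.58.1 in R 4.3.3 (empirical Bayes with a trend, 8 residual degrees of freedom), after checks on simulated data, with Benjamini-Hochberg adjustment over the 14227 genes and a threshold of 0.05. ± is limma's standard error of a difference of 3 against 3 libraries. Its spread is pooled over all 12 libraries, so it is not the spread of the 6 libraries compared. In the fit with library weights, a lower weight marks a library that spreads more. Weights were 0.44, 0.73 and 0.73 in DiI-positive and 1.70, 0.98 and 1.07 in DiI-negative curcumin libraries. They ran from 0.65 to 1.90 in the empty liposome libraries.

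The comparison, its 50 gene lists and the naming rule were chosen with earlier results of these data known. The rule named the 20 largest rises and falls, list members past the threshold, the first 4 genes of cell type lists, preset gate and cytokine genes, variable segments, and genes with the smallest p in other fits. Outside it, Nr1h3, the mitochondrial genes, the membrane skeleton genes and the 7 genes of opposite sign were chosen after their values were seen. Gene coordinates are GENCODE's and promoters RefSeq's, on GRCm38. Alternatives covered the libraries fitted, a replicate block, the filter, the variance prior, weights, scaling, leaving out each library, and, chosen after seeing the data, the depth index as a covariate. No column of values was left out; a few genes that the lists hold are not reported by name here.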

Additional observations from a re-analysis of the deposited data

How the results depend on the processing

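The count of 437 genes ranged from 114 to 1088 over the fits that left out 1 library. It was 40 in the fit of the 6 libraries alone, 248 with no filter on low values, 706 without both libraries numbered 3, and 73 with the relative depth index as a covariate, an alternative chosen after seeing the data. The other planned settings that kept all 12 libraries gave 341 to 560. The drop without a filter came with 24874 genes tested; the cause of the other changes was not tested.

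Deviations of same-numbered libraries had correlations of 0.07, 0.03 and 0.33. For libraries of unlike number they ran from -0.24 to 0.20, so the 0.33 between the libraries numbered 3 was the highest. What the numbers stand for is not stated, and the main fit did not pair libraries by them. With a replicate block the count was 448 over 12 libraries, of which 320 were among the 437, and 17 over the 6 libraries alone. Under the block over 12 libraries cDC1 genes had 5 falls and 1 rise, and B cell genes 20 rises.

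The difference between the gate effects of the 2 liposomes passed for 0 to 2 genes over the fits that left out 1 library, for 1 gene without both libraries numbered 3, and for 0 under the remaining settings; it could not be computed in the fits of the 6 libraries alone, which hold no empty liposome libraries.

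None of the named genes past the threshold changed sign under any of the 17 settings. Most of these settings could not reverse a sign. The gates did not overlap in any of the 437 genes, so leaving out or weighting libraries could not do so. Changing the filter, the variance prior, the block or the libraries fitted left the difference of means as it was. Only the rescalings and the depth index could have reversed one. Of the named genes not past the threshold, 9 changed sign. Over the fits that left out 1 library, Siglech ranged from -1.94 to 0.32, Lyve1 from -0.38 to 0.46, Cd74 from -0.12 to 0.07, Il1b from -0.46 to 0.00, Il12b from -0.14 to 0.09, mt-Atp6 from -0.00 to 0.05, mt-Co2 from -0.02 to 0.03 and mt-Co3 from -0.00 to 0.07. Without both libraries numbered 3, Lyve1 was at -0.24, Cd74 at 0.09, Il12b at -0.08, mt-Co2 at -0.02 and mt-Co3 at -0.00. After quantile normalization Cd74 was at 0.00, Il12b at -0.01 and mt-Co2 at -0.01, and with the depth index Itgax was at 0.02, Il12b at -0.03 and mt-Co2 at -0.02.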
